A study of Homo sapiens with 66 samples.

Results

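The 71 protein-coding genes of the clustered histone families were followed in poly(A)-selected RNA of A375 cells, a human melanoma line that carries mutant BRAF. They were chosen by name, as every protein-coding gene whose GENCODE 29 symbol starts with HIST1H, HIST2H, HIST3H or HIST4H, and make up 71 of the 58721 gene IDs in each table. The symbol pattern also matched 19 pseudogenes, which were set aside. Linker histone H1 is represented by 6 genes, H2A by 17, H2B by 18, H3 by 15 and H4 by 15. The HIST1 cluster on chromosome 6 holds 55 of them, HIST2 on chromosome 1 holds 12, HIST3 on chromosome 1 holds 3, and HIST4 on chromosome 12 holds 1.

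The 66 libraries formed 22 groups of 3 replicates in 3 experiments, which the labels number as batches. In the first, cells carrying a guide RNA against GFP (the control, labelled WT) or 1 of 2 guides against MED12, MED19 or MED23 received DMSO or vemurafenib, an inhibitor of mutant BRAF, at 1 µM for 24 h. In the second, cells with the GFP guide or MED23 guide 1 carried an empty vector (EV) or overexpressed SOX10. In the third, control cells were set beside cells knocked out for HDAC3, for MED23, or for both (double knockout). For the second and the third experiment the labels of single libraries name no treatment. MED12, MED19 and MED23 belong to Mediator, a large complex through which DNA-bound activators act on RNA polymerase II. HDAC3 is a histone deacetylase and SOX10 a transcription factor of the melanocyte lineage. The labels do not say whether knockout cells were clones or pools, nor whether replicates were separate cultures, so p-values measure only the spread between these libraries, which may be technical. The 3 control columns of the HDAC3 experiment are named for GFP in the deposited table and were taken as the control libraries because no other group of that experiment was left for them.

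Replication-dependent histone mRNAs normally carry no poly(A) tail. Their transcripts end in a short stem-loop that is bound by the protein SLBP and cut just downstream by a complex built on the U7 small nuclear RNA, and NPAT drives their transcription in S phase. Many of these genes can also give a polyadenylated mRNA from a site further downstream, a form known from differentiated and non-dividing cells. Poly(A) selection captures that form and loses most of the rest, so the values here describe polyadenylated histone RNA and whatever tailless RNA passed the selection, and not the total histone mRNA of the cells. In bulk RNA, fewer cells that express a gene and less RNA per cell cannot be told apart.

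The stem-loop is shown for 9 members to place the known processing signal inside the annotated models that were counted. The 16-base stem-loop (GG, any 2 bases, CTT, any base, T, any base, AG, any 2 bases, CC) is in capitals, with 5 flanking bases on each side, 5′ to 3′ on the gene's strand, read from the GRCh38 transcripts.
HIST1H2AC: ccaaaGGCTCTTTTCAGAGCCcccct
HIST1H2BC: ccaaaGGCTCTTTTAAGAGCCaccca
HIST1H2AG: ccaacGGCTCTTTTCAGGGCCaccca
HIST1H3E: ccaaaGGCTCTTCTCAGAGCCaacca
HIST1H4H: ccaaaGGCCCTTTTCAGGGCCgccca
HIST1H4I: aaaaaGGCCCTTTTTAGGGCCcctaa
HIST2H2BE: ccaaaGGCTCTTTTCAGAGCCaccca
HIST2H4A: ccaaaGGCCCTTTTTAGGGCCgacca
HIST3H2A: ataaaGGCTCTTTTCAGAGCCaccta
These letters were found in 32 members, starting 23 to 68 bases after the stop codon. The commonest form, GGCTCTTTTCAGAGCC, stood in 17 of them. HIST1H3E and HIST1H2AG each had a form found in no other member. In 30 of the 32 the annotated transcript runs on for at least 30 bases past the stem-loop. It runs 1128 bases past it in HIST1H2AC, 1729 in HIST2H2BE, 1761 in HIST1H2AG and 1862 in HIST1H3E, against 116 in HIST1H2BC and 212 in HIST1H4I.

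Most of the remaining models stop short of the signal. An annotated 3′UTR of at least 100 bases is present in 29 members (long models), one of 1 to 99 bases in 7 (short models), and none in 35, whose coding transcripts end with the coding part (coding-only models). Just below the threshold stood HIST1H2AI with 99 bases and HIST1H2BL with 82, and just above it HIST1H2AE with 116 and HIST2H2AA3 and HIST2H2AA4 with 118 each. If reads were counted over such models, those beyond the end of a short or coding-only one would not be counted. The annotation the authors counted with is not given in the sources used here, and its part in the results was not tested.

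Depth differed between experiments. Assigned reads per library ranged from 65.9 M to 211.8 M in the first experiment, 24.9 M to 30.8 M in the second and 58.8 M to 106.2 M in the third, and the 71 members received 8290 to 100933, 1462 to 3173 and 4285 to 10640 of them. After the filter on low counts 60, 37 and 48 members were tested. All 29 long models passed in the first experiment, with 6 of 7 short and 25 of 35 coding-only models. A count of 0 in all 66 libraries was found for HIST1H2AK, HIST1H2BA, HIST1H4G, HIST1H3D and HIST2H3PS2. Of these HIST1H2AK, HIST1H3D and HIST2H3PS2 overlap exons of other genes, where counting can drop reads as ambiguous, so a 0 there does not show absence. Sequence shared with another gene makes some counts uncertain. More than 90% of the 50-base windows of HIST1H4K, HIST2H2AA3, HIST2H2AA4, HIST2H3A, HIST2H3C, HIST2H4A and HIST2H4B also occur in another of the 71 members. No window was shared with another member for 34 of them. Pseudogenes and other genes outside the 71 were not searched. HIST2H3C and HIST2H4A overlap on opposite strands, as do HIST2H3A and HIST2H4B. HIST1H3J and HIST1H2AM, and HIST1H2AL and HIST1H2BN, overlap on the same strand. The strand setting of the counting is not given in the sources used here. The targeted genes were lower under their guides, by 2.04 ± 0.03 on the log2 scale for MED12, 1.05 ± 0.04 for MED19 and 1.12 ± 0.03 for MED23 in DMSO, and by 0.97 ± 0.05 for HDAC3 (log2 fold change ± standard error). Melanoma marker genes summed to 852.7 to 930.4 CPM (counts per 1 M of scaled library size) in control DMSO libraries, 2134 to 2191 under vemurafenib and 163.5 to 212.3 in MED12 knockout cells in DMSO. Markers of other cell types stayed between 4.36 and 22.74 CPM in all libraries, led by KRT14, with HBB, MYOD1, CD3E and CDH1 at or near 0.

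In control cells in DMSO the 71 members together made up 83.53 ± 2.61 CPM (mean ± SD, n = 3). Per kilobase of annotated exon, the highest levels were those of HIST1H2BK (19.04 CPM per kb), HIST1H1C (13.17), HIST3H2A (9.998), HIST2H2AA4 (9.269) and HIST2H4A (5.718). Vemurafenib raised the sum to between 325.6 and 335.4 CPM, against 80.98 to 86.19 in DMSO, a ratio of 3.955. All 3 drug-treated libraries lay above all 3 DMSO libraries. By class the ratio was 4.764 for H4, 4.346 for H3, 4.34 for H2A, 3.357 for H2B and 2.433 for H1. HIST1H1C carried the H1 sum, with 21.5 to 23 of a mean 23.52 CPM under the drug; of the other H1 genes tested HIST1H1D rose (0.61, as log2 fold change), HIST1H1A and HIST1H1B fell, and HIST1H1E had -0.58 (adjusted p = 0.051). The knockouts were also higher in DMSO: the mean sum was 394.3 and 400.5 CPM with the 2 MED12 guides, 265.3 and 230.6 with the MED19 guides and 138.0 and 147.3 with the MED23 guides. The lowest MED23 library, at 128.6 CPM, stood above the highest control library.

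**Figure D1:**
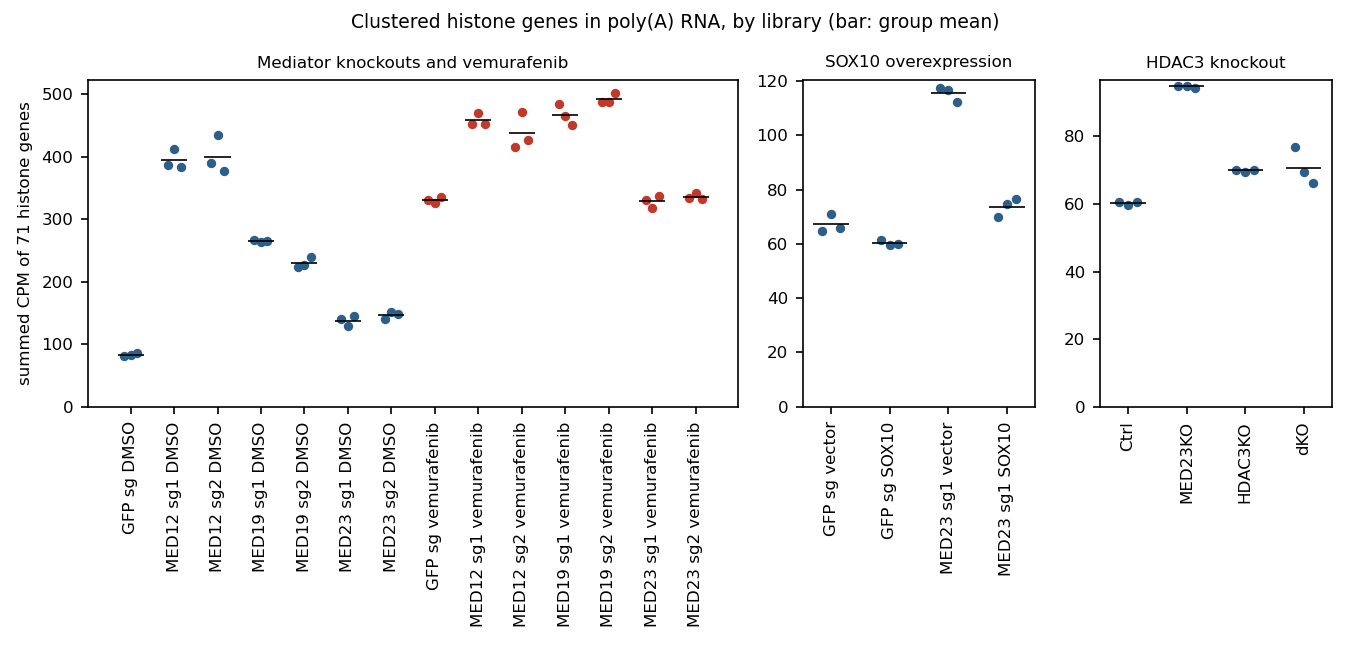
Summed CPM of the 71 histone genes (vertical axis, from 0) in each of the 66 libraries, with 1 point per library and a bar at each group mean. Red points are libraries labelled with vemurafenib, and blue points are all others. The labels of the SOX10 and HDAC3 libraries name no treatment. In the first experiment the control libraries in DMSO, at 80.98 to 86.19 CPM, lie below those of every other group, and in the SOX10 and HDAC3 experiments the MED23 knockout without a second change is the highest group.

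In control cells vemurafenib raised most members with long annotated models and lowered 12 of 25 with coding-only models. Of 60 tested, 33 rose and 14 fell (edgeR quasi-likelihood test, Benjamini-Hochberg adjusted p under 0.05), beside 35.8% and 30.3% of all genes. At a change of at least 2-fold, 30 rose and 13 fell, beside 18.5% and 11.2%. The median log2 fold change was 1.04, against 0.11 over all genes tested. Of the long models 26 of 29 rose and 1 fell, with a median of 1.73. Of the coding-only models 5 of 25 rose and 12 fell, with a median of -0.94, or -0.88 with the gene at 0 under the drug set at its bound. Of the 6 short models tested 2 rose and 1 fell. By cluster, 9 of 11 HIST2 genes rose and 1 fell, with a median of 2.55, while 21 of 45 HIST1 genes rose and 13 fell, with a median of 0.61.

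The members with the largest rise were core histone genes with long models. HIST1H2AG (ENSG00000196787), an H2A gene at chr6:27133042-27135291 on the plus strand with 1827 bases of 3′UTR, was counted at 0.918, 1.07 and 1.3 CPM in DMSO and 9.71, 10.4 and 11 CPM under vemurafenib. The groups lay far apart, and the log2 fold change was 3.21 ± 0.11 (adjusted p = 4.6e-30). HIST1H3E (ENSG00000274750), an H3 gene at chr6:26224199-26227473, went from 1.13, 1.32 and 1.34 to 9.67, 9.68 and 11.2 CPM (2.99 ± 0.11, adjusted p = 8.3e-29). HIST2H2BE (ENSG00000184678), an H2B gene at chr1:149884459-149886652 on the minus strand, went from 3.85, 3.9 and 4.46 to 24.9, 26.3 and 26.4 CPM (2.66 ± 0.07, adjusted p = 2.5e-34). In both genes every treated library was above every DMSO library. HIST2H3C (3.14 ± 0.16), HIST2H2AA4 (2.92 ± 0.08) and HIST2H2AA3 (2.75 ± 0.10) also rose, with the uncertainty of shared sequence, as did HIST1H3H (2.82 ± 0.14). HIST2H3A, the near copy of HIST2H3C, rose by 1.37 ± 0.17.

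The 10 members listed as known polyadenylated genes all rose, by 1.56 in the median. HIST1H2AC (ENSG00000180573), an H2A gene at chr6:26124145-26139116 on the plus strand with 1 or 2 exons, was counted at 6.76, 7.07 and 7.34 CPM in DMSO and 26.8, 28.6 and 29.2 under the drug. Its groups did not overlap, with a log2 fold change of 2.00 ± 0.06 (adjusted p = 9.8e-33). HIST1H1C (ENSG00000187837), a linker histone gene at chr6:26055787-26056428 with a coding-only model, went from 7.79, 7.93 and 9.64 to 21.5, 22.5 and 23 CPM (1.39 ± 0.06, adjusted p = 1.4e-26). HIST1H2BK (ENSG00000197903), an H2B gene at chr6:27146418-27146798 and also coding-only, went from 6.77, 7.4 and 7.6 to 14.3, 14.5 and 15.7 CPM (1.04 ± 0.06, adjusted p = 3.7e-22). These were the most abundant members in DMSO per kilobase. HIST1H2BK rose less than all the long-model genes above, and HIST1H1C less than all of them but HIST2H3A. HIST1H2BC rose by 1.05 ± 0.14, and HIST1H2BJ had the smallest value of the 10 (0.76 ± 0.15).

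The coding-only genes that fell were mostly low in DMSO. HIST1H3J, an H3 gene with a second, non-coding transcript among its 775 exon bases and an exon overlap with HIST1H2AM on the same strand, had 398 counts over the 3 DMSO libraries and 59 over the 3 vemurafenib libraries (-2.41 ± 0.33, adjusted p = 8.7e-09). HIST1H3C had 169 and 13, and HIST2H2AC, an H2A gene at chr1:149886975-149887364, had 311 and 126 (-0.94 ± 0.23, adjusted p = 3.9e-04). These 3 were picked after their values were seen. HIST1H1A was at 0 in all vemurafenib libraries, with 17 counts in DMSO, which puts it at least 1.497-fold lower against a floor of 3 counts per library. HIST1H4B, the long model that fell, was also at 0, with 31 counts in DMSO (at least 2.353-fold lower). Summed by model, the long models stood at 4.786 times their DMSO level, the coding-only models at 1.994 times and the short models at 1.436 times. The coding-only sum is carried by HIST1H1C and HIST1H2BK.

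**Figure D2:**
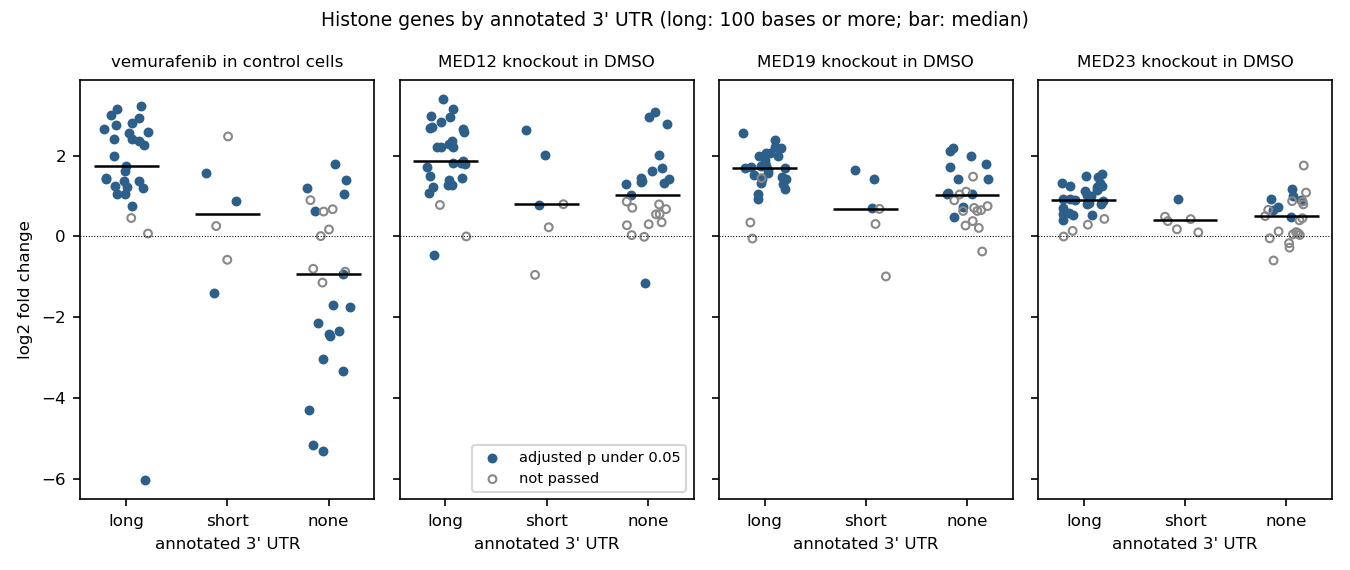
Log2 fold change (vertical axis) of each tested histone gene in 4 comparisons of the first experiment, grouped by annotated 3′UTR: long (100 bases or more), short (1 to 99) or none. Filled points passed an adjusted p under 0.05, open points did not, and bars are medians; under vemurafenib the medians are 1.73 for long models and -0.94 for models without 3′UTR, while in MED12 knockout cells they are 1.85 and 1.02.

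Other gene groups moved in the same comparison. All 20 tested genes of an S phase list fell under vemurafenib, with a median log2 fold change of -2.56. Of 16 genes for histone 3′-end formation and transcription 14 fell and 2 rose, with a median of -0.83. The 2 were MIF4GD, which binds SLBP, and HINFP, an activator of H4 transcription. SLBP went from 103.0 to 104.0 CPM in DMSO to 41.7 to 42.5 CPM (-1.30 ± 0.03, adjusted p = 1.2e-34), and NPAT from 49.1 to 51.8 to 26.6 to 28.0 CPM (-0.87). Of 14 genes of general cleavage and polyadenylation 11 fell and 1 rose. Of 12 histone genes outside the clusters 10 fell; H2AFJ, an H2A variant, rose (1.09 ± 0.07), and H1F0, a linker histone of resting cells, fell by 0.64. None of the 6 tested RNAs known to lack a poly(A) tail passed the test here, with values from -0.94 to 0.42. The part of these groups in the histone result was not tested.

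In MED12 knockout cells in DMSO, members of every class rose. Of 60 tested, 42 rose and 2 fell, beside 27.9% and 27% of all genes, with a median log2 fold change of 1.42 against 0.00 over all genes. The rise covered 4 of 5 H1 genes, 9 of 13 H2A, 13 of 17 H2B, 7 of 12 H3 and 9 of 13 H4. Of the long models 26 of 29 rose (median 1.85), and of the coding-only models 13 of 25 rose and 1 fell (median 1.02). The sums reached 7.858 and 8.294 times control for H1 with guide 1 and guide 2, against 5.384 and 5.474 for H2B and between 3.755 and 3.916 for the other classes. HIST1H1C again made up most of the H1 sum, and HIST1H1E (2.64), HIST1H1D (2.02) and HIST1H1B (1.41) rose as well. The MED12, MED19, MED23 and vemurafenib comparisons share the 3 control libraries in DMSO, so their values are given side by side.

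HIST1H1C showed the change in a linker histone. Its lowest, median and highest of the 6 MED12 knockout libraries were 68.1, 71.3 and 79.6 CPM, against at most 9.64 in control cells. No library of 1 group reached the other, and the log2 fold change was 3.08 ± 0.05 (adjusted p = 5.5e-42). HIST1H2BK stood at 53.1, 55.5 and 62.6 CPM, against 6.77 to 7.6 (2.96 ± 0.05, adjusted p = 2.5e-42). HIST1H2BC, an H2B gene at chr6:26114873-26123926 on the minus strand, had the largest rise, from 0.719, 0.821 and 0.823 CPM to 6.82, 8.37 and 9.26 (3.40 ± 0.12, adjusted p = 1.2e-29). HIST1H2AC stood at 42.9, 44.5 and 48.2 CPM (2.67 ± 0.05), HIST1H4I at 13.6, 14.8 and 15.7 against 1.61, 1.87 and 2.04 (2.98 ± 0.07), and HIST1H4H at 6.63, 7.32 and 8 against 0.704, 0.869 and 0.903 (3.14 ± 0.11). All 6 genes had separate groups. HIST1H2BJ rose by 2.95 ± 0.12 and HIST2H2BE by 2.21 ± 0.07.

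HIST3H2A (ENSG00000181218), the H2A gene of the HIST3 cluster at chr1:228456979-228457873, went the other way. It was counted at 8.83, 8.93 and 9.08 CPM in control cells and 5.36, 6.63 and 7.23 in MED12 knockout cells, with no overlap (-0.46 ± 0.07, adjusted p = 2.1e-07). HIST1H3J also fell (-1.16 ± 0.24). No HIST3 gene rose, against 31 of 45 HIST1 genes and 10 of 11 HIST2 genes.

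MED19 and MED23 knockout in DMSO gave 41 members that rose and none that fell, and 33 that rose and none that fell. The background was 20.4% higher and 20.2% lower for MED19, and 18.4% and 18.5% for MED23. Medians were 1.41 and 0.72. HIST1H2BJ, an H2B gene at chr6:27125897-27132750, is the only long model without the stem-loop letters. Among members with a mean log2 CPM of at least 0 it rose most in both knockouts. Its lowest, median and highest values were 4.23, 4.55 and 5.94 CPM in MED19 knockout cells and 2.22, 2.36 and 2.54 in MED23 knockout cells, against 0.762, 0.823 and 0.853 in control cells. The groups were separate, with log2 fold changes of 2.55 ± 0.12 and 1.54 ± 0.12 (adjusted p = 5.1e-15 for MED23). HIST1H2BK rose by 2.10 ± 0.05 and 1.17 ± 0.05. HIST1H2AC stood at 21.5, 24.7 and 28.9 CPM in MED19 knockout cells and 13.8, 15.2 and 17.6 in MED23 knockout cells, and HIST1H1C at 26.1, 30.2 and 33.7 and at 12.2, 13.5 and 14. For HIST1H1C, HIST1H2AC and HIST1H2BK the medians thus ran from MED12 through MED19 to MED23 and then control. The ranges of neighbouring groups did not overlap for these genes. Not every member kept this order, as HIST1H2AG rose by 1.71 in MED12 and 1.98 in MED19 knockout cells. HIST3H2A had values of 7.51, 8.62 and 9.39 CPM with MED19 guides and 8.42, 8.83 and 9.53 with MED23 guides, overlapping the control libraries.

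Fewer than all S phase genes fell in these knockouts. Of the 20 S phase genes 16 fell and 1 rose in MED12 knockout cells (median -0.44), 14 fell and 1 rose for MED19 (-0.15) and 18 fell for MED23 (-0.21). Of the 16 genes for histone 3′-end formation and transcription 10, 8 and 8 fell and 2, 2 and 1 rose. SLBP fell by 0.21 ± 0.03 in MED12 and by 0.14 in MED23 knockout cells, and had a log2 fold change of -0.05 ± 0.03 in MED19 knockout cells (adjusted p = 0.2). NPAT fell by 0.35, 0.24 and 0.22. Of the 6 tested RNAs without a poly(A) tail 2, 3 and 2 fell in MED12, MED19 and MED23 knockout cells and 1, RNU5A-1, rose in MED12 knockout cells. Those that fell in all 3 were RN7SL2 (-2.41, -2.94 and -1.92) and RN7SL3 (-2.34, -2.91 and -1.73), near copies that encode the RNA of the signal recognition particle. The part of these groups in the histone result was not tested.

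The knockouts were also compared with control cells under the drug. The control sum of 330.4 ± 4.863 CPM compared with 458.7 and 438.8 for the MED12 guides, 466.6 and 492.7 for MED19, and 328.9 and 335.9 for MED23. Against drug-treated control cells 23 members rose and 10 fell in MED12 knockout cells (background 32.5% and 29.6%), 32 rose and 2 fell for MED19 (23.1% and 20.7%), and 11 rose and 10 fell for MED23 (24.6% and 22.7%). The count for MED23 is close to the background, as is the share that rose for MED12. HIST1H2BC (2.19, 1.55 and 0.78) and HIST1H2BK (1.79, 1.25 and 0.57) rose in MED12, MED19 and MED23 knockout cells. HIST2H3C fell in MED12 (-1.38) and MED23 (-0.82) knockout cells, and HIST3H2A in MED12 (-1.11 ± 0.07) and MED19 (-0.40) knockout cells. HIST1H1C stood at 88.6, 93.5 and 98.4 CPM in drug-treated MED12 knockout cells, against 21.5 to 23 in drug-treated control cells (2.07), and the groups were separate. The long models of MED12 knockout cells were split, with 12 that rose and 10 that fell (median 0.08). Of the 25 coding-only models 9 rose and none fell (median 1.04, or 1.00 with genes at 0 set at their bound). For both sets of models the share that rose lies near the 32.5% of all genes.

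The response to vemurafenib was also taken within each knockout. In MED12 knockout cells 14 members rose and 27 fell, beside 32.4% and 30.8% of all genes; with libraries scaled on total counts alone 19 rose and 20 fell. In MED19 knockout cells 29 rose and 20 fell (37.7% and 32.6%), and in MED23 knockout cells 29 rose and 22 fell (37.4% and 32.1%). Medians were -0.15, 0.19 and 0.24. The shares that fell in MED19 and MED23 knockout cells are close to the background. Of the coding-only models 19, 16 and 17 of 25 fell in the 3 knockouts, while of the 29 long models 11, 23 and 23 rose. HIST1H2AC was counted at 39.7, 44 and 45.9 CPM in drug-treated MED12 knockout cells, which overlaps the 42.9 to 48.2 CPM without the drug. HIST1H2AG rose by 1.02 ± 0.07, from 3.13, 3.68 and 4.22 to 6.21, 7.72 and 8.4 CPM, with no overlap. HIST1H2BJ fell, from 5.82, 6.13 and 7.74 to 3.39, 3.77 and 4.49 CPM (-0.72 ± 0.08, adjusted p = 2.9e-11), and also fell in MED19 (-0.84) and MED23 (-0.37) knockout cells, the last with an adjusted p of 0.069 when libraries were scaled on total counts alone. HIST1H1E, a linker histone gene at chr6:26156354-26157107 with 57 bases of 3′UTR, fell in MED12 (-0.91), MED19 (-1.90 ± 0.17) and MED23 (-1.35) knockout cells. In MED12 knockout cells its lowest, median and highest values were 2.96, 3.11 and 3.6 CPM without the drug and 1.28, 1.69 and 2.2 with it. The 3 tested HIST3 genes rose in MED12 knockout cells, HIST3H2A by 0.54 and HIST3H2BB by 0.60 (0.42 with guide 1 alone, adjusted p = 0.056).

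**Figure D3:**
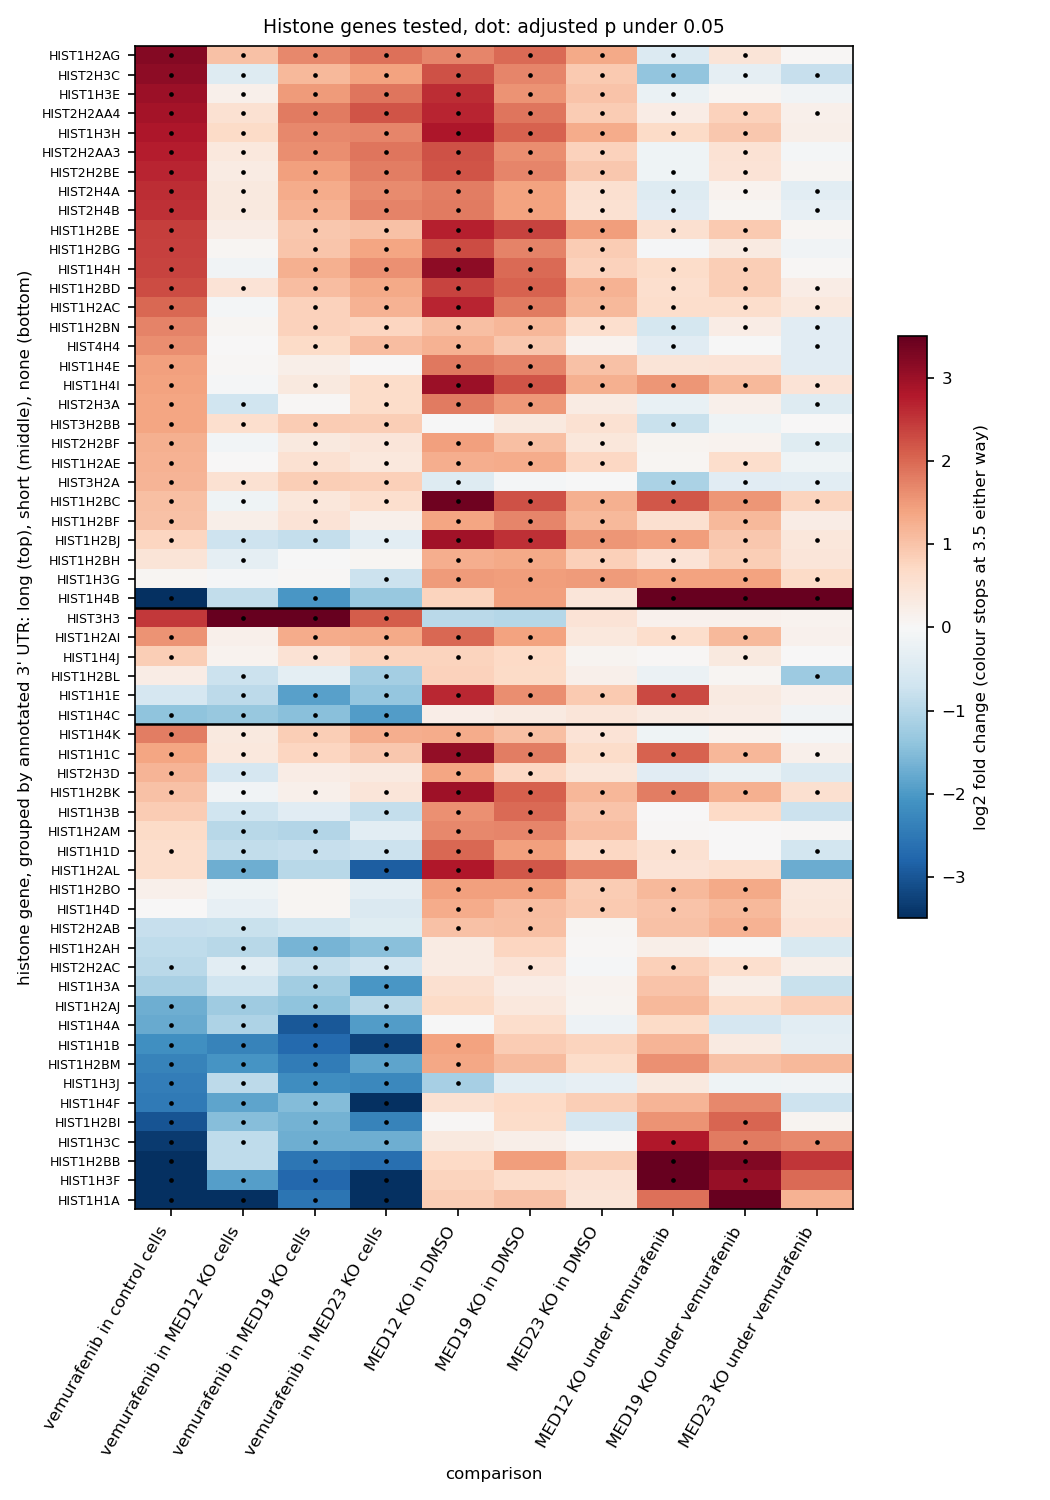
Log2 fold change (colour, stopping at 3.5 in either direction) of the 60 tested histone genes (rows) in 10 comparisons of the first experiment (columns), with rows grouped by annotated 3′UTR and ordered by the vemurafenib response of control cells; dots mark an adjusted p under 0.05. Most long models are red under vemurafenib and in the 3 knockouts in DMSO, apart from HIST1H4B under vemurafenib and HIST3H2A in the knockouts among others, and most coding-only models are blue under vemurafenib; genes at 0 in a whole group, such as HIST1H4B, have colours that depend on the prior count.

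The difference between these responses was tested as an interaction. The drug's log2 fold change was lower in MED12 knockout than in control cells for 35 members and higher for 5 (background 24.2% lower and 24.9% higher). It was lower for 31 and higher for 1 in MED19 knockout cells (15.2% and 17.4%) and lower for 30 and higher for 1 in MED23 knockout cells (16.2% and 18.5%). Of the 29 long models 26, 24 and 24 were lower, and of the 25 coding-only models 7, 6 and 6. All 10 known polyadenylated members had negative interactions in the 3 knockouts. HIST2H3C had the largest, of -3.60 ± 0.19 for MED12 (adjusted p = 4.1e-22), -2.01 for MED19 and -1.74 for MED23, with the uncertainty of shared sequence. HIST1H3E (-2.80 ± 0.13), HIST1H4H (-2.49), HIST2H2BE (-2.37 ± 0.08) and HIST1H2AC (-2.06 ± 0.07) followed for MED12, and HIST1H1C had -1.01. The interactions use the same control libraries as the comparisons above. S phase genes went the opposite way, with 19 of 20 higher and none lower in the MED12 interaction (median 1.39). RN7SL2 and RN7SL3 were higher in the MED19 (2.96 and 3.10) and MED23 (2.38 and 2.30) interactions, and no RNA without a tail passed in that of MED12. The part of these groups was not tested.

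Genes of 1 head-to-head pair did not always move together. An H2A and an H2B gene that start less than 500 bases apart on opposite strands share the sequence between them as promoter, and 11 such pairs were found, 9 with both genes tested. Pair members below were chosen by position. HIST2H2BE (long model) and HIST2H2AC (coding-only) had 2.66 and -0.94 under vemurafenib and 2.21 and 0.27 in MED12 knockout cells, the last with an adjusted p of 0.22. HIST2H2AC was counted at 0.654, 0.703 and 0.735 CPM in control cells and 0.744, 0.834 and 0.93 in MED12 knockout cells. HIST1H2BK and HIST1H2AH (both coding-only) had 1.04 and -0.88 under the drug, the latter with an adjusted p of 0.13, and 2.96 and 0.30 in MED12 knockout cells. HIST1H2BJ and HIST1H2AG, both long, had 0.76 and 3.21 under the drug and 2.95 and 1.71 in MED12 knockout cells, so that the gene with the larger value changed. HIST1H2BC and HIST1H2AC had 1.05 and 2.00, and 3.40 and 2.67. HIST3H2BB and HIST3H2A had 1.37 and 1.19 under the drug and -0.00 and -0.46 in MED12 knockout cells. No test of a difference within a pair was run.

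The stretch between the starts is shown for 2 pairs that differ in these values, from RefSeq GRCh38.p14, with CCAAT, the octamer ATTTGCAT and TATAAA in capitals wherever they occur on either strand. The first lies at chr1:149886683-149886917 and is printed on the minus strand, toward HIST2H2BE; the second lies at chr1:228457874-228458102 and is printed on the plus strand, toward HIST3H2BB.
HIST2H2BE/HIST2H2AC: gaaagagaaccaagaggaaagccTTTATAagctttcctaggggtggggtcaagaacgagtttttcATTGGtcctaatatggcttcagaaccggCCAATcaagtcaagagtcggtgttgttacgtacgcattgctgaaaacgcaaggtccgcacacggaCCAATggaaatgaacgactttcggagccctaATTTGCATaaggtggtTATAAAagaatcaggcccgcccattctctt
HIST3H2BB/HIST3H2A: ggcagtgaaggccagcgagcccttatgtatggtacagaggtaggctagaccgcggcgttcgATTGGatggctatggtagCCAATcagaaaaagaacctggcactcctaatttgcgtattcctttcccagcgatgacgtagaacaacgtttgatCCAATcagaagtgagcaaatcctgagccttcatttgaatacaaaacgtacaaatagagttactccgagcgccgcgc
The first holds 3 CCAAT, 1 octamer and 2 TATAAA matches, and the second 3 CCAAT matches and no match to the other motifs. Promoters were available for 61 members, from 250 bases before to 50 after the start. Only the 250 bases before the start were searched for the motifs, on both strands. CCAAT was found in 51 of them (83.61%, against 33.04% of 27305 promoters), the octamer in 26 (42.62% against 1.663%) and TATAAA in 40 (65.57% against 11.13%). The octamer stood in 11 of 14 H2A, 14 of 18 H2B and 1 of 10 H3 promoters and in no H1 or H4 promoter, and CCAAT in only 3 of 13 H4 promoters. Of long models 21 of 27 held CCAAT and 11 the octamer, and of coding-only models 25 of 28 and 15. A match is a description of letters and not of a bound site.

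**Figure D4:**
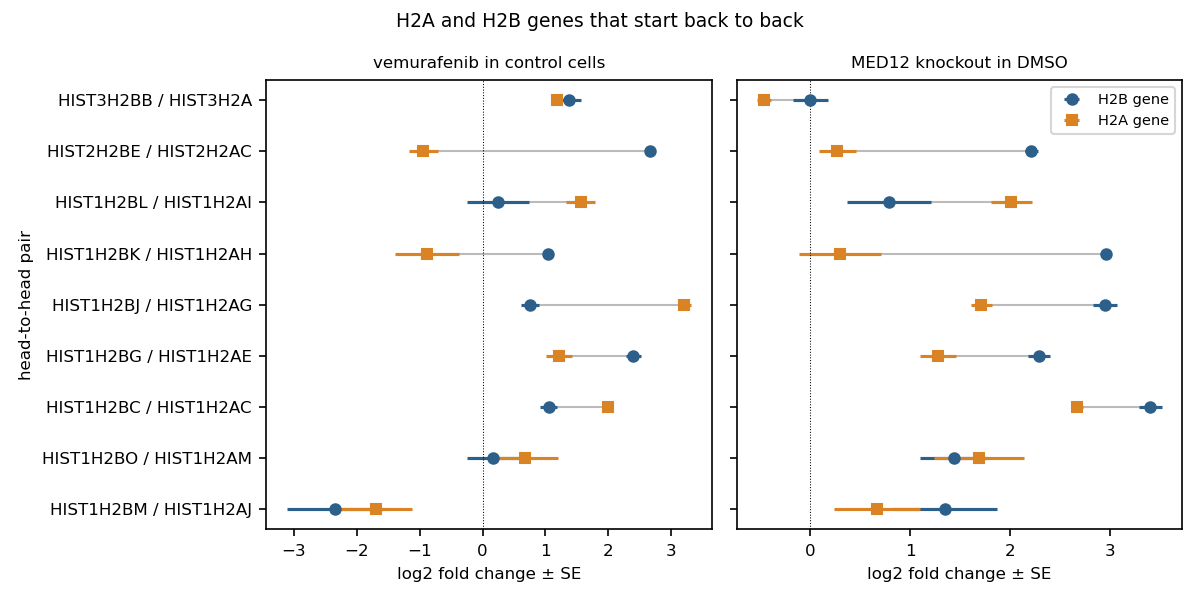
Log2 fold change with its standard error for the 9 head-to-head pairs with both genes tested, under vemurafenib in control cells (left) and in MED12 knockout cells in DMSO (right); circles are H2B genes, squares H2A genes, and a line joins the genes of a pair. HIST2H2BE and HIST2H2AC lie at 2.66 and -0.94 under vemurafenib, and HIST1H2BJ and HIST1H2AG exchange order between the panels.

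MED23 knockout was measured in all 3 experiments against separate controls. The summed level was higher by a ratio of 1.652 and 1.763 with the 2 guides in the first, 1.719 in the SOX10 experiment and 1.573 in the HDAC3 experiment. In the SOX10 experiment 20 of 37 tested members rose and 1 fell (background 21.2% and 22.3%), and in the HDAC3 experiment 17 of 48 rose and 1 fell (12.3% and 12%). Of the 37 members tested in all 3, 16 rose in every experiment and 27 had positive values in every experiment, while 2 fell in at least 1. The 16 were HIST1H1C, HIST1H2AC, HIST1H2AG, HIST1H2BC, HIST1H2BD, HIST1H2BJ, HIST1H2BK, HIST1H3E, HIST1H3G, HIST1H4I, HIST2H2AA3, HIST2H2AA4, HIST2H2BE, HIST2H3C, HIST2H4A and HIST2H4B. HIST1H2BC had adjusted p-values from 0.085 to 0.104 in the SOX10 experiment when EV control replicate 2 or MED23 EV replicate 1 or 2 was left out. HIST1H2AC went from 5.19, 5.87 and 6.08 to 13.5, 13.9 and 15.1 CPM in the SOX10 experiment (1.31 ± 0.08, adjusted p = 7.4e-14) and from 5.69, 5.71 and 5.94 to 11.8, 12 and 12.4 CPM in the HDAC3 experiment (1.06 ± 0.09). Both pairs of groups were separate. HIST1H2BK rose by 1.19 and 1.21. Across the 37 members Pearson's r between the log2 fold changes of 2 experiments was 0.65, 0.71 and 0.77, a description across genes that are not independent. Of the 20 S phase genes 20 fell in the SOX10 experiment and 19 in the HDAC3 experiment. Of the RNAs without a poly(A) tail neither of the 2 tested passed in the SOX10 experiment, while 2 of 3 rose in the HDAC3 experiment, RN7SL2 and RN7SL3 (1.39 for the latter), which had fallen in the first. The summed level of the 18 listed was 6.066 to 19.81 CPM in MED23 knockout cells there, against 3.22 to 5.505 in control cells. Their part was not tested.

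In control cells 1 histone gene passed the test for SOX10 overexpression. The summed level was 59.5 to 61.29 CPM, against 64.77 to 70.91 with the vector. Of 37 members 1 fell and none rose, beside 11% and 11.6% of all genes. The gene that fell was HIST1H2BG, an H2B gene (-0.61 ± 0.22, adjusted p = 0.041). Its adjusted p ranged from 0.051 to 0.203 with control EV replicate 2 or 3, or any of the 3 SOX10 replicates, left out. SOX10 itself rose by 0.19 on the log2 scale in control cells and by 0.80 in MED23 knockout cells. In MED23 knockout cells SOX10 lowered the sum from between 112.2 and 117.5 CPM to between 69.73 and 76.53. There 19 of 37 members fell and none rose (background 20.7% and 21.2%), 16 of the 26 long and 3 of the 7 coding-only models. HIST1H2AC went from 13.5, 13.9 and 15.1 to 6.37, 7.16 and 7.26 CPM (-1.03 ± 0.08, adjusted p = 6.4e-12), and HIST2H2BE from 5.87, 5.94 and 6.51 to 3.03, 3.11 and 3.12 CPM (-0.98 ± 0.11). Neither gene's groups overlapped. HIST1H2BD (-1.06), HIST1H2AG (-0.93), HIST1H2BC (-0.85) and HIST1H2BK (-0.70) also fell. With SOX10 present MED23 knockout cells had 7 of 37 members higher than control cells and none lower (background 16.1% and 16.3%), a share of higher members close to the background, including HIST1H3E (1.25), HIST1H2BJ (1.23) and HIST1H2BK (0.62). The interaction was negative for 7 members and positive for none (7.04% and 7.64%), with HIST1H2AG at -1.28 ± 0.33 (adjusted p = 0.0076) and HIST2H2BE at -1.14 ± 0.17. Without control SOX10 replicate 2 HIST1H2AG had an adjusted p of 0.059. In the same cells 15 of 20 S phase genes rose with SOX10 (median 0.18), and RN7SL2 rose (1.43). RN7SL2 had 92, 71 and 302 counts with the vector and 186, 942 and 184 with SOX10, so its groups overlapped. The part of the S phase genes and of RN7SL2 was not tested.

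HDAC3 knockout in control cells gave 9 members that rose and 3 that fell of 48, beside 21.2% and 20.9% of all genes. The share that rose is close to the background. Scaled on total counts alone 7 rose and 4 fell. HIST2 genes made up 6 of the 9, out of 10 tested, while 3 of 35 HIST1 genes rose. HIST2H4A, an H4 gene at chr1:149832659-149839767, went from 5.37, 6.11 and 6.17 to 9.18, 9.91 and 10.3 CPM (0.74 ± 0.09, adjusted p = 9.3e-07), with no overlap. HIST2H2AA3 (0.96 ± 0.21), HIST2H2BE (0.64), HIST2H2AA4 (0.60), HIST2H2BF (0.58; 0.49 and adjusted p = 0.051 without HDAC3 knockout replicate 3) and HIST2H4B (0.54) rose too, and 4 of these 6 share most of their sequence with a near copy. HIST1H2BK had 4.99, 5.07 and 5.1 CPM in control and 4.23, 4.68 and 4.95 in HDAC3 knockout cells, lower in each library without passing the test. HIST3H2A fell from 5.9, 6.48 and 6.5 to 4.58, 4.61 and 5.63 CPM (-0.35, adjusted p = 0.042), with adjusted p from 0.107 to 0.139 when control replicate 2 or 3 or HDAC3 knockout replicate 1 or 3 was left out.

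In MED23 knockout cells the loss of HDAC3 lowered HIST1H2BK, HIST1H2AC and 9 other members, a share close to the background, and raised 2. The sum went from between 94.47 and 94.93 CPM to between 66.21 and 76.74 in double knockout cells, against 59.74 to 60.57 in control cells. Of 48 members 11 fell and 2 rose (18.9% and 19.1% of all genes), and 10 of the 11 had long models. This comparison and that of MED23 knockout with control cells share the MED23 knockout libraries. HIST1H2BK went from 10.6, 12.1 and 12.3 to 5.27, 5.38 and 6.22 CPM (-1.06 ± 0.09, adjusted p = 5.5e-09), and HIST1H2AC from 11.8, 12 and 12.4 to 5.6, 6.1 and 6.55 CPM (-0.99 ± 0.09, adjusted p = 1.4e-08). Both were separate from MED23 knockout cells; HIST1H2BK stayed above the control range, and HIST1H2AC overlapped it. Against control cells the double knockout had 11 members higher and 1 lower (18.2% and 18.4%), including HIST1H2BC (1.18), HIST1H3E (0.93) and HIST1H2BD (0.62), with HIST3H2A lower (-0.51); the share that was higher is close to the background. Without control replicate 3 the count was 6 higher and 1 lower. Against HDAC3 knockout cells it had 6 higher and 2 lower (17.2% and 18.3%). The interaction was negative for 12 members and positive for 2 (10.5% and 10%), with HIST2H2AA3 at -1.23 ± 0.29 and HIST1H2AC at -1.19 ± 0.13 (adjusted p = 5.3e-07). Without control replicate 2 it counted 9. SLBP rose by 0.45 ± 0.04 when HDAC3 was lost in MED23 knockout cells, from 92.7 to 98.8 CPM to between 129.8 and 130.1, and 12 of 20 S phase genes rose (median 0.24). Of 3 tested RNAs without a tail RNU5A-1 rose (1.42), and all 3 were higher in double than in HDAC3 knockout cells (1.34 to 1.55). Their part was not tested.

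**Figure D5:**
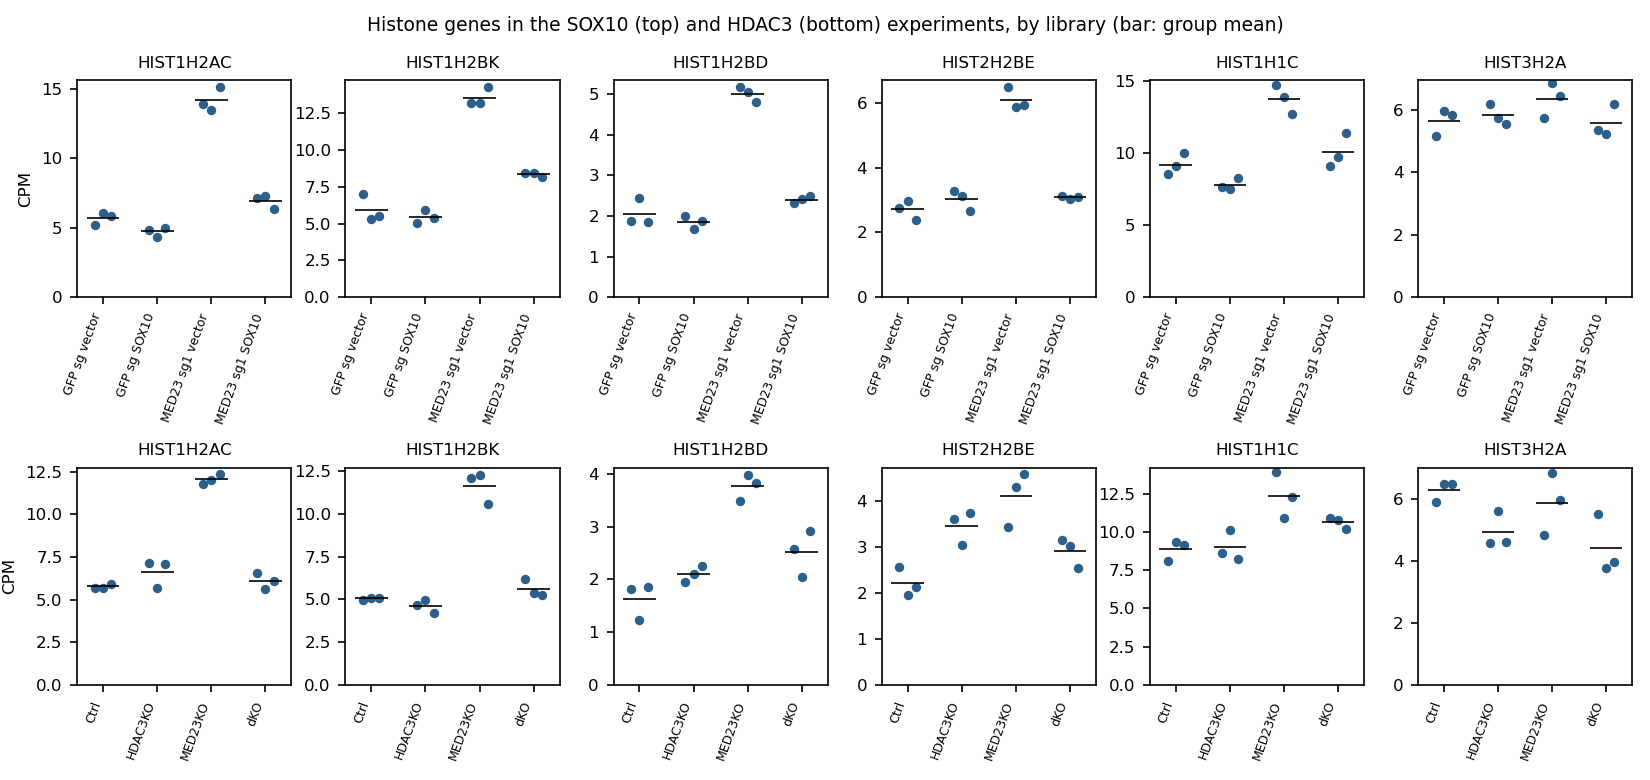
CPM (vertical axes, from 0) of 6 histone genes by library in the SOX10 experiment (top) and the HDAC3 experiment (bottom), with 1 point per library and a bar at the group mean. HIST1H2AC reaches 13.5 to 15.1 CPM and 11.8 to 12.4 CPM in the MED23 knockout groups without a second change, and at most 7.26 and 7.15 CPM in the other groups.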

How the data were processed

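The authors deposited 3 tables of raw read counts per gene, 1 per experiment. Per the submitters' processing notes bcl2fastq, HISAT2 and HTSeq were used with hg38; their versions, the annotation, the strand setting and the handling of multiply mapped reads are not stated there. Per the labels' protocols the RNA was poly(A)-selected with a stranded kit. Of the columns, 15 carry names other than the sample titles, and no column was left unused.

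Members, lists and rules were chosen with earlier results of these data known. Each table was fitted separately in edgeR 4.0.16 (R 4.3.3; filterByExpr, TMM, quasi-likelihood test, 1 mean per group, the 2 guides of a gene weighted equally), and p-values were adjusted over all genes tested by Benjamini-Hochberg at 0.05. CPM are counts scaled by the TMM-adjusted library size. "Rose" and "fell" mean an adjusted p under 0.05. Named genes were, per comparison, up to 6 members with the largest rise and up to 6 with the largest fall. These had a mean log2 CPM of at least 0. To them came 10 members known for polyadenylated forms. Some other members that are named fit neither rule, such as HIST1H1A and HIST1H4B under vemurafenib. Not all of these are marked as picked later. From the further lists, SLBP, NPAT, H1F0, H2AFJ, MIF4GD, HINFP, RN7SL2, RN7SL3, RNU5A-1 and the targeted genes were named. Models, coordinates and stem-loops came from GENCODE 29 on GRCh38. The fits were checked on simulated data. Alternatives were DESeq2 1.42.0 (its test, and its size factors in edgeR), scaling on total counts, no filter, each guide alone, only the groups compared, a replicate block and leaving out each library.

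Replicate numbers are shared between groups. The mean correlation of same-numbered libraries' deviations was 0.006, 0.043 and 0.214 in the 3 experiments. Among the comparisons of a single group with another, every pair exceeded 0.1 only for HDAC3 knockout in MED23 knockout cells (0.152 to 0.332). Comparisons that combine guides, and interactions, were not checked in this way. The values given for HDAC3 knockout in MED23 knockout cells come from the fit without pairing. Pairing by replicate number was run only as an alternative, the replicate block.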

Additional observations from a re-analysis of the deposited data

Results flagged for a closer look

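The response of the histone genes to vemurafenib differed between knockout and control cells by an interaction term. Of 60 tested members, this difference passed an adjusted p under 0.05 (edgeR quasi-likelihood test) for 40 in MED12 knockout cells. It did so for 32 in MED19 and 31 in MED23 knockout cells. Over all genes, 24.9% had a higher and 24.2% a lower response in MED12 knockout cells. The shares were 17.4% and 15.2% for MED19, and 18.5% and 16.2% for MED23. For MED12 the interaction was -3.60 for HIST2H3C and -2.80 for HIST1H3E, for MED19 -2.01 for HIST2H3C and -1.60 for HIST1H2BJ, and for MED23 -1.74 for HIST2H3C and -1.39 for HIST1H2BE, all as log2 differences of fold changes. HIST2H3C shares all of its 50-base windows with another gene, so its counts are uncertain; its near copy HIST2H3A, counted separately, had interactions of -2.06, -1.34 and -0.74.

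The effect of MED23 knockout differed between cells with and without overexpressed SOX10 for 7 of 37 tested members. The values were -1.28 for HIST1H2AG and -1.14 for HIST2H2BE, and over all genes 7.64% were higher and 7.04% lower. The effect differed between cells with and without HDAC3 for 14 of 48 tested members. Here the values were -1.23 for HIST2H2AA3 and -1.19 for HIST1H2AC, and over all genes 10% were higher and 10.5% lower.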

How the results depend on the processing

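Of 24 counts of histone genes past the threshold, 23 stayed within 1.5 times their value under DESeq2's Wald test and with only the groups compared in the fit, and all 24 did under DESeq2 size factors, total-count scaling, no filter and the replicate block. The exception was SOX10 overexpression in control cells, where 1 gene passed: DESeq2's Wald test gave 0, the groups compared alone gave 2, and leaving out 1 library gave 0 to 3, with 3 without GFP guide vector replicate 1. Leaving out 1 library gave 7 to 12 for the double knockout against control and 9 to 12 for the interaction of MED23 and HDAC3 knockouts. Of 278 pairs of a named gene and a comparison, 245 stayed past the threshold under every alternative run and 33 did not under at least 1; none changed direction. The replicate block, which pairs same-numbered libraries, gave 46 for vemurafenib in control cells, 44 for MED12 knockout, 14 for HDAC3 knockout in MED23 knockout cells and 10 for the double knockout, and changed the call of no named gene. Scaling on total counts alone moved the median of all genes under vemurafenib in control cells from 0.11 to 0.30. At these depths members with few reads, most of them coding-only models, could not be tested in the SOX10 and HDAC3 experiments. The cause of these changes was not tested.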

Other observations

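The 19 histone pseudogenes matched by symbol summed to between 11.87 and 12.32 CPM in control DMSO libraries, 51.58 to 53.5 under vemurafenib and 24.25 to 29.77 in MED12 knockout cells in DMSO. HIST2H2BC made up the largest part, with 5.792 to 5.876 CPM in DMSO and 31.9 to 32.28 under vemurafenib, followed by HIST2H2BD with 3.379 to 3.898 and 15.8 to 17.33. In MED23 knockout cells the pseudogene sum was 11.58 to 13.43 CPM with the vector in the SOX10 experiment, against 7.446 to 8.722 in control cells, and 11.98 to 13.49 in the HDAC3 experiment, against 8.007 to 8.883. These genes are named pseudogenes by the annotation, and reads shared with near copies cannot be placed.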
